A study of Homo sapiens with 15 samples.

Results

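Knockdown of PALI1 was set directly against knockdown of SUZ12 in LNCaP, a line of human prostate cancer cells that respond to androgen. The comparison used 6 of the 15 RNA-seq libraries of the series, the 3 labelled shPALI1 and the 3 labelled shsuz12. Genes with an RPKM (reads per kilobase of transcript, scaled to library size) of 1 or more in 3 or more of these 6 libraries were compared, which left 12175 of the 26443 genes with values. The 3 libraries of the control vector, labelled pLKO, did not enter the test and served only to place each gene.

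In the shPALI1 group, wild-type LNCaP cells carried a lentiviral short hairpin RNA against PALI1, and in the shsuz12 group one against SUZ12. The pLKO group had been infected with the control hairpin vector. All groups were kept in serum-containing RPMI medium and had been infected for 4 to 5 days. The labels name 1 hairpin per target and do not say whether replicates came from separate cultures. Effects of losing a target and other effects of its hairpin therefore cannot be told apart, and p-values measure only the spread between libraries.

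SUZ12 is a core subunit of Polycomb repressive complex 2 (PRC2), which places methyl groups on lysine 27 of histone H3 and keeps genes silent. PRC2 works in variants, each carrying different accessory subunits. PALI1 is the accessory subunit made from the LCOR locus, and the series title links it to chromatin targeted by G9a, a histone H3 lysine 9 methyltransferase. Loss of SUZ12 takes away the scaffold of all PRC2 variants, while loss of PALI1 takes away an accessory subunit of one of them. The comparison asks which genes differ between these states.

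Depth, read from the steps that 1 read makes in the RPKM values, was 10.55 to 19.35 M reads over the 9 libraries. A 2 kb gene at 1 RPKM thus had 21.1 to 38.7 reads. Across genes, log2(RPKM + 1) correlated at 0.988 to 0.991 within shPALI1 and at 0.989 to 0.991 within shsuz12, against 0.925 to 0.937 between libraries of different knockdowns. Genes are not independent replicates, so these r describe the libraries only. The prostate markers KLK3, KLK2, FOLH1, HOXB13, TMPRSS2, KRT8 and KRT18 were all present, each at 21.1 RPKM or more in the 6 knockdown libraries. Markers of other cell types were near absent: 0 of 6 endothelial, 1 of 8 immune (CD68) and 2 of 8 fibroblast markers (COL3A1 and COL1A1) reached the level needed for testing. Summed RPKM of the immune markers was 4.64 to 5.34 in shPALI1, 2.37 to 3.08 in shsuz12 and 2.83 to 3.74 in pLKO, with PTPRC and CD3E at 0 in all 9 libraries. CD68, a macrophage marker that other cells also express, was higher in shPALI1 by 0.61 on the log2 scale; its part in other results was not tested. The endothelial sums were 0.65 to 0.925 in shPALI1, 1.04 to 1.12 in shsuz12 and 0.956 to 1.27 in pLKO, and the fibroblast sums 5.24 to 5.67 in shPALI1, 5.02 to 5.51 in shsuz12 and 4.71 to 5.31 in pLKO.

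Each targeted gene was lowest in the libraries of its own hairpin. SUZ12, on chromosome 17 from 31937007 to 32001038 (GRCh38.p14), read 15.8, 16.7 and 17.6 RPKM in the shPALI1 libraries, 2.71, 2.59 and 2.28 in the shsuz12 libraries and 19.2, 22.6 and 18.7 in the pLKO libraries. The shPALI1 and shsuz12 libraries did not overlap, and shPALI1 was 2.33 higher on the log2 scale (SE 0.076, adjusted p = 1.6e-07, limma). C10orf12, the row for the part of the LCOR locus that is specific to PALI1, read 0.667, 1.2 and 1.03 RPKM in shPALI1, 3.66, 2.56 and 3.14 in shsuz12 and 3.77, 3.94 and 4.44 in pLKO. All 3 shPALI1 libraries lay below all 3 shsuz12 libraries, a log2 difference of -1.07 (SE 0.14, adjusted p = 0.00017). The LCOR row itself, on chromosome 10 from 96832298 to 96995956, read 2.8, 3.12 and 3.36 RPKM in shPALI1, 8.86, 7.82 and 7.67 in shsuz12 and 4.2, 5.58 and 5.67 in pLKO. It was lower in shPALI1 by a log2 difference of -1.16 (adjusted p = 6.2e-06), with pLKO strictly between the knockdowns. The gene models behind these rows are not known, so the LCOR row may also hold PALI1 reads.

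The transcriptomes of the knockdowns differed widely. Of the 12175 genes, 7660 (62.9%) passed at an adjusted p of 0.05, 4247 of them (34.9% of genes tested) higher in shPALI1 and 3413 (28%) lower. A difference of at least 2-fold was reached by 414 of the higher and 492 of the lower genes, together 7.44% of genes tested. In 8269 genes (67.9%) the 3 libraries of one knockdown did not overlap with the 3 of the other. The median log2 difference over all genes was 0.054, with quartiles at -0.28 and 0.364, and the counts of the gene lists given below are to be read against these shares. The split between directions moved with the scaling: with TPM (RPKM rescaled to a common sum in each library), 3321 genes were higher and 4030 lower, and with median ratio scaling 3778 and 3800.

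**Figure D1:**
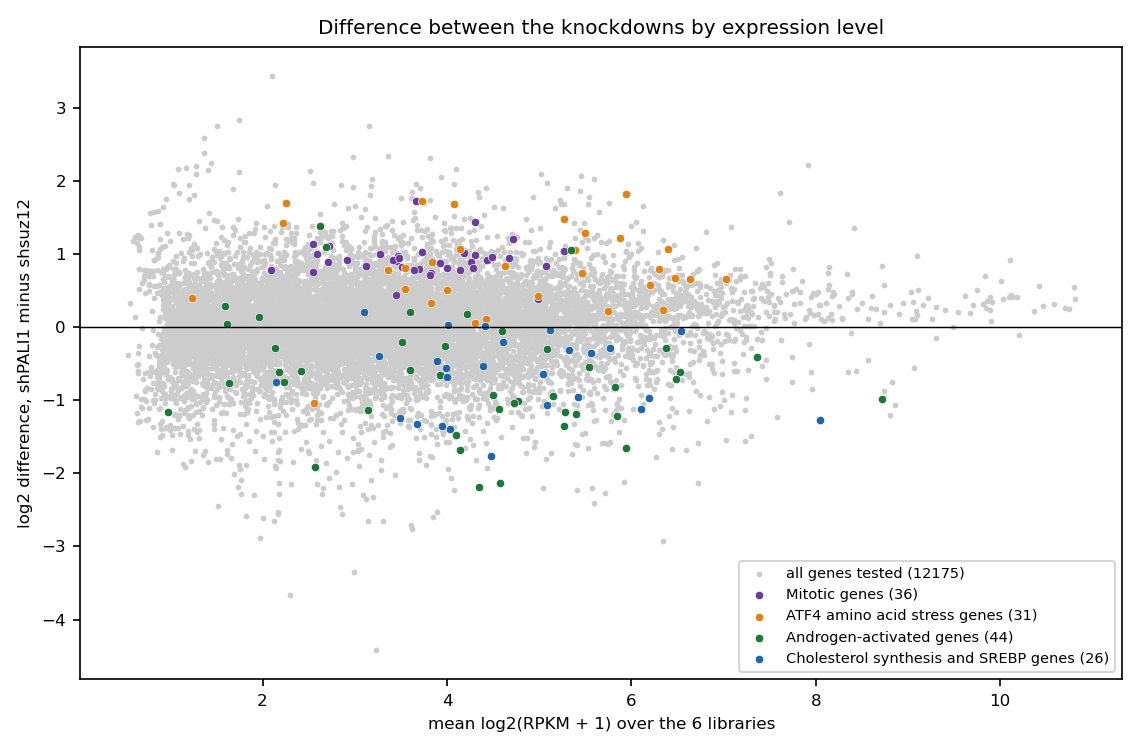
Log2 difference, shPALI1 minus shsuz12 (vertical axis), against mean log2(RPKM + 1) over the 6 libraries (horizontal axis) for the 12175 genes tested, 1 point per gene. Coloured points are members of 4 lists: the 36 mitotic genes all lie above 0, and most of the 44 androgen-activated and 26 cholesterol genes lie below.

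The control vector placed these differences. pLKO was called beside a knockdown when its library range overlapped that knockdown alone, and strictly between when it lay in the gap. Of the 4247 genes higher in shPALI1, pLKO lay beside shPALI1 in 1573 (37%), above both knockdowns in 787 (18.5%), beside shsuz12 in 720 (17%) and strictly between in 634 (14.9%). Of the 3413 lower genes, pLKO lay beside shPALI1 in 891, beside shsuz12 in 865 and strictly between in 804 (23.6%). The picture differed for large differences. Among the 492 genes at least 2-fold lower in shPALI1, pLKO lay strictly between the knockdowns in 304 (61.8%), so shPALI1 read below the control vector and shsuz12 above it. Among the 414 genes at least 2-fold higher this held for 137 (33.1%), and pLKO lay beside shPALI1 in another 124 (30%). A wide gap leaves more room for the control to fall between, and the place of pLKO carries no test.

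**Figure D2:**
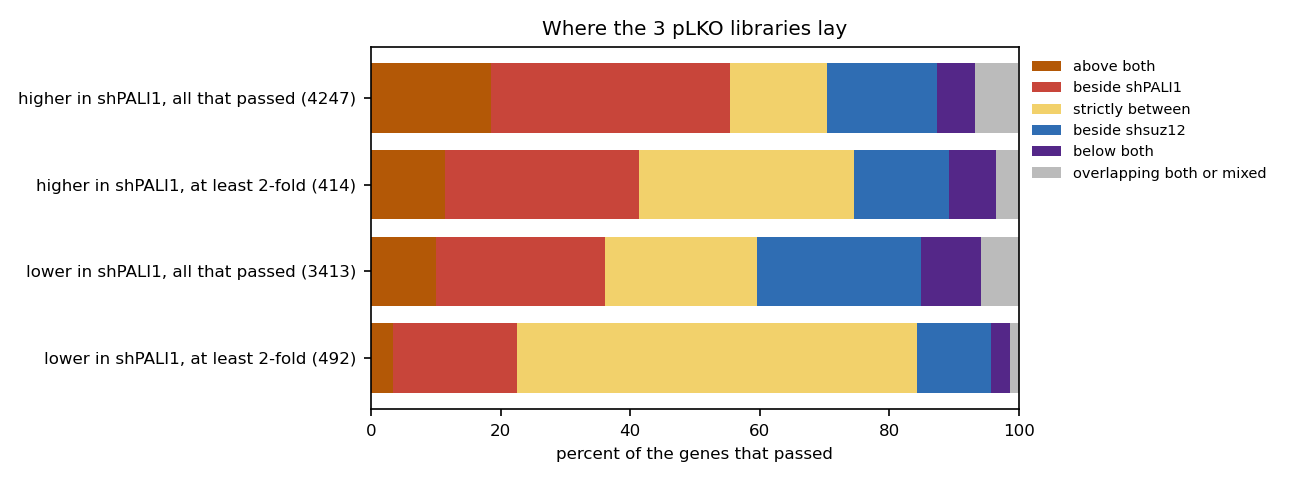
Percent of the genes that passed (horizontal axis) by where the 3 pLKO libraries lay relative to the ranges of the shPALI1 and shsuz12 libraries; the number of genes is beside each bar. The yellow segment, pLKO strictly between the knockdowns, is 61.8% of the genes at least 2-fold lower in shPALI1 and 23.6% of all lower genes.

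The largest difference of all was in SI, which encodes the intestinal brush border enzyme sucrase-isomaltase. SI read 0.898, 0.98 and 1.21 RPKM in shPALI1, 43, 43.1 and 41.2 in shsuz12 and 0.848, 0.961 and 0.685 in pLKO. The shPALI1 libraries overlapped with pLKO, and those of shsuz12 lay far above both. The log2 difference was -4.42 (95% confidence interval -4.59 to -4.25, adjusted p = 1.3e-08). The SI promoter is printed as a start region of the gene with the largest difference. It is a RefSeq window (GRCh38.p14, chr3:165078447-165078746, minus strand, 250 bases before to 50 after a start site) and holds 0 CpG dinucleotides. The RefSeq span of the gene, 164978898 to 165090232, reaches past this start site, which is therefore not the outermost one.
SI: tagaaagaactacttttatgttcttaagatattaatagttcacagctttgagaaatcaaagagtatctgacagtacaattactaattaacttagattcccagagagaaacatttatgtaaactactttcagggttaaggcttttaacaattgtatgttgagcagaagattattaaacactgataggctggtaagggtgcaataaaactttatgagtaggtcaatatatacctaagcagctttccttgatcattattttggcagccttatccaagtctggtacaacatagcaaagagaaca

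CHRNA2, a neuronal nicotinic acetylcholine receptor subunit, read 0.349, 0.518 and 0.287 RPKM in shPALI1, 15.4, 17.2 and 16.9 in shsuz12 and 1.85, 1.6 and 1.37 in pLKO. TENM1, a teneurin of neuronal cell contacts, read 0.573, 0.823 and 0.842 RPKM in shPALI1, 10.7, 9.43 and 9.81 in shsuz12 and 0.54, 0.536 and 0.665 in pLKO. Both had shsuz12 libraries above all others, with log2 differences of -3.66 and -2.65. GJB1, a gap junction connexin, averaged 0.448 ± 0.14 RPKM in shPALI1, 9.68 ± 1.1 in shsuz12 and 3.01 ± 0.47 in pLKO (SD, n = 3 each). ESPN, an actin-bundling protein of microvilli and stereocilia, averaged 0.456 ± 0.2 RPKM in shPALI1, 7.68 ± 0.28 in shsuz12 and 1.47 ± 0.2 in pLKO. For CHRNA2, GJB1 and ESPN the control vector lay strictly between, and for TENM1 it lay beside shPALI1. CHRNA2, TENM1, GJB1 and ESPN passed the filter only through shsuz12, the group where they were high, which sets their direction. AQP3, a water and glycerol channel, averaged 3.74 ± 0.53 RPKM in shPALI1, 31.3 ± 3.8 in shsuz12 and 19.3 ± 2.8 in pLKO, and PLA2G4F, a cytosolic phospholipase A2, averaged 3.78 ± 0.4, 30.2 ± 1.7 and 12.9 ± 1.2 RPKM in those groups. Both were lower in shPALI1, by log2 differences of -2.77 and -2.71.

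On the other side, MAT2B, the regulatory subunit of methionine adenosyltransferase, read 22.5, 21.5 and 22.3 RPKM in shPALI1, 3.76, 3.59 and 3.34 in shsuz12 and 15.5, 15.5 and 14.9 in pLKO. FTH1, the ferritin heavy chain that stores iron, read 558, 525 and 478 RPKM in shPALI1, 112, 115.6 and 105 in shsuz12 and 377, 344 and 276 in pLKO. ADRA2A, an alpha-2 adrenergic receptor, read 33.3, 37.5 and 35.5 RPKM in shPALI1, 6.97, 7.24 and 7.08 in shsuz12 and 17.6, 15 and 14.4 in pLKO. All 3 genes were higher in shPALI1, with log2 differences of 2.34 for MAT2B, 2.22 for FTH1 and 2.17 for ADRA2A, and with pLKO strictly between. FTH1 has many processed pseudogenes, and reads shared with them make its level uncertain.

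**Figure D3:**
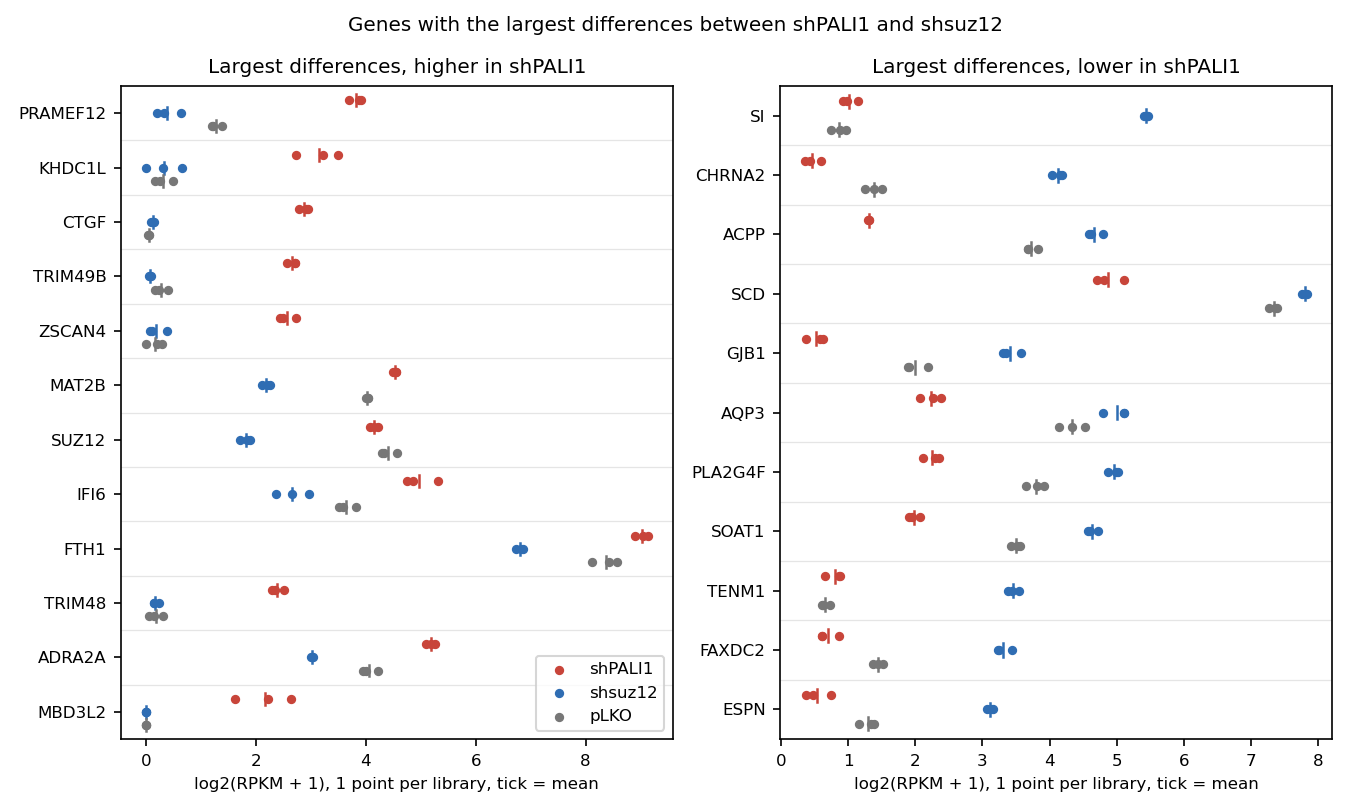
Log2(RPKM + 1) in each library (horizontal axis) of the genes among the 12 largest differences in each direction, 1 lower gene left out; points are libraries, ticks are means, and shPALI1 stands above shsuz12 and pLKO in each row. In the left panel the pLKO points of PRAMEF12, KHDC1L, CTGF, TRIM49B, ZSCAN4, TRIM48 and MBD3L2 lie near the low shsuz12 points, and in the right panel those of SI and TENM1 lie near shPALI1.

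Most core PRC2 subunits were higher in shPALI1 than in shsuz12, but not all. Of the 6 tested of 6 (SUZ12, EZH2, EZH1, EED, RBBP4 and RBBP7), 4 were higher and 0 lower, with SUZ12 among them as the targeted gene. EZH2, the catalytic subunit, read 16.4, 16.7 and 17.1 RPKM in shPALI1, 9.98, 10.2 and 10.1 in shsuz12 and 16.5, 16.1 and 14.1 in pLKO, a log2 difference of 0.68 (SE 0.055, adjusted p = 1.1e-05). The shPALI1 and pLKO libraries overlapped, and the shsuz12 libraries lay below both. The histone-binding subunits RBBP7 and RBBP4 were higher by log2 differences of 0.8 and 0.61, and RBBP7 averaged 61.2 ± 1.1 RPKM in shPALI1, 34.7 ± 1.5 in shsuz12 and 48.7 ± 3.3 in pLKO. EED, which reads the H3K27 methyl mark, averaged 8.48 ± 0.42 RPKM in shPALI1 and 8 ± 0.49 in shsuz12 and did not pass (log2 difference 0.07, adjusted p = 0.37). With the correction for transcript length and GC content it was lower, at -0.26. EZH1, the alternative catalytic subunit, averaged 5.75 ± 0.75 RPKM in shPALI1 and 6.66 ± 0.25 in shsuz12 and did not pass (log2 difference -0.19, adjusted p = 0.097), but it passed as lower with median ratio scaling, with TPM and without shPALI1 replicate 3, at -0.24, -0.32 and -0.27.

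Accessory subunits went both ways. Of 11 accessory genes with a row 9 were tested, and 3 were higher and 4 lower, the LCOR and C10orf12 rows among the lower. C17orf96, now EPOP, which links PRC2 to elongin, read 7.07, 6.97 and 6.25 RPKM in shPALI1, 2.27, 2.03 and 2.2 in shsuz12 and 6.9, 6.42 and 5.01 in pLKO (log2 difference 1.29, adjusted p = 2.3e-06). It was the accessory gene with the largest rise, and pLKO lay beside shPALI1. MTF2, a Polycomb-like protein that binds CpG-rich DNA, averaged 11.5 ± 0.8 RPKM in shPALI1, 7.06 ± 0.3 in shsuz12 and 8.75 ± 0.26 in pLKO. JARID2, the cofactor of the other PRC2 variant, read 6.7, 7.6 and 8.04 RPKM in shPALI1, 12.6, 12.3 and 11.7 in shsuz12 and 8.79, 8.18 and 8.9 in pLKO. JARID2 was lower in shPALI1 by a log2 difference of -0.64 (adjusted p = 9.6e-05), with pLKO strictly between. AEBP2, which accompanies JARID2, was lower, at -0.32, and LCORL, the LCOR paralog, was higher by 0.4 (adjusted p = 0.012), but did not pass once corrected for length and GC content (0.23). PHF1 and PHF19, the other Polycomb-like proteins, did not pass, with log2 differences of -0.1 and 0.14. PHF19 passed as higher with that correction (0.32).

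Other chromatin regulators went both ways. PRC1, the complex that ubiquitinates histone H2A, had 7 of 23 tested subunits higher and 3 lower (5 lower with TPM). Among them CBX6, a chromodomain subunit, averaged 38.6 ± 1.3 RPKM in shPALI1, 19 ± 0.69 in shsuz12 and 16.8 ± 1.1 in pLKO (log2 difference 0.99), while the transcriptional corepressor BCOR was lower, at -0.34. Of 16 genes for H3K9 methylation and heterochromatin protein 1, 7 were higher and 5 lower, with CBX3 (HP1 gamma) higher by 0.71 and CBX5 (HP1 alpha) lower, at -0.44. Among 12 tested histone demethylases 4 were higher and 4 lower, with KDM1A (LSD1) higher by 0.76 and KDM6B, an H3K27 demethylase, lower, at -0.46. The higher demethylases numbered 1 without shPALI1 replicate 2, without shsuz12 replicate 2 or with TPM, 2 without replicate 3 of either knockdown, with no filter, with 15 libraries in one model or with the replicate block, and 2 rather than 4 were lower with the length and GC correction. UHRF1, which guides maintenance DNA methylation, averaged 4.04 ± 0.27 RPKM in shPALI1, 1.71 ± 0.1 in shsuz12 and 5.14 ± 0.57 in pLKO (log2 difference 0.9), and the de novo methyltransferase DNMT3A was lower, at -0.66. Of the 7 DNA methylation enzymes tested, 4 were higher and 2 lower.

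Genes of cell division stood higher in shPALI1 than in shsuz12. All 36 mitotic genes tested of 36 listed were higher, against 34.9% of all genes, and their median log2 difference was 0.91 against 0.054. TOP2A, the topoisomerase that untangles chromosomes, read 31, 31.1 and 33 RPKM in shPALI1, 11.8, 11 and 10.3 in shsuz12 and 27.8, 32.2 and 29.2 in pLKO. CDC20, an activator of the anaphase-promoting complex, read 38.4, 40.5 and 38 RPKM in shPALI1, 14.8, 17.7 and 16.7 in shsuz12 and 67.9, 59.8 and 58.5 in pLKO. In TOP2A the shPALI1 and pLKO libraries overlapped, and in CDC20 pLKO lay above both knockdowns. The log2 differences were 1.44 (adjusted p = 5.3e-07) and 1.2 (adjusted p = 2e-06). CENPF, a kinetochore protein, had the largest difference of the list at 1.73, with 22.2 ± 3.2 RPKM in shPALI1, 5.98 ± 0.88 in shsuz12 and 25.9 ± 2.2 in pLKO (SD, n = 3 each). CCNB1, the mitotic cyclin B1, averaged 54.4 ± 0.79 RPKM in shPALI1, 25.9 ± 1.2 in shsuz12 and 65.7 ± 3.9 in pLKO, and the mitotic kinase PLK1 averaged 24.9 ± 0.23, 11.9 ± 0.46 and 35.7 ± 3.5 RPKM in those groups. The smallest differences were in MKI67, the proliferation marker Ki-67, and BUB3, a checkpoint protein, at 0.44 and 0.38. MKI67 did not pass without shPALI1 replicate 2 or 3 or shsuz12 replicate 2 or 3 (adjusted p = 0.0675, 0.0748, 0.0708 and 0.0681), with TPM (0.0916), with no filter (0.0705) or with 15 libraries in one model (0.0603). With TPM the other 35 passed. pLKO lay above both knockdowns in 23 of the 36 genes and beside shPALI1 in 13. In bulk RNA, fewer dividing cells and less RNA per dividing cell cannot be told apart.

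Promoters of mitotic genes often carry the cell cycle homology region (CHR), the element TTTGAA that is bound by the DREAM and MMB complexes. The RefSeq promoters of 29 of the 36 genes were at hand, each 300 bases long, and 20 of them (69%) held TTTGAA on either strand. The share was 9.29% over the 9620 promoters of genes tested and 15.4% over all 27305 promoters. Among genes at least 2-fold higher in shPALI1 20.8% of 312 promoters held it, and among those at least 2-fold lower 7.56% of 357; the mitotic genes contribute to the higher group. A match in these letters is a description of the window and not a measured binding site. Here and below, the share within a list depends on how its members were chosen and is no result of the knockdowns. The CDC20 promoter (chr1:43358731-43359030, plus strand, GRCh38.p14) is shown with its 2 matches in capitals, at 178 and 65 bases before the start site, the first on the opposite strand.
CDC20: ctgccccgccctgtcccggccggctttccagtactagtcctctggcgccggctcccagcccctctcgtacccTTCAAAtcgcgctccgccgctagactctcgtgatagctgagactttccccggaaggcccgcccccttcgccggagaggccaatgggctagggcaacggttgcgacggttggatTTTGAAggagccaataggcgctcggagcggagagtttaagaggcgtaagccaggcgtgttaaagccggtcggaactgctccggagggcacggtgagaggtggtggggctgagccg

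DNA replication genes moved in the same direction. Of 40 tested of 40, 34 were higher and 1 lower, with a median log2 difference of 0.64. RRM2, the ribonucleotide reductase subunit that makes deoxynucleotides, read 24.8, 22 and 24.5 RPKM in shPALI1, 9.49, 8.57 and 8.54 in shsuz12 and 29.3, 29.7 and 25.2 in pLKO (log2 difference 1.33, adjusted p = 1.2e-06). Its shPALI1 and shsuz12 libraries did not overlap, and the pLKO libraries were the highest. GINS1, a subunit of the replicative helicase, read 18.3, 16.8 and 15.3 RPKM in shPALI1, 6.85, 7.4 and 6.87 in shsuz12 and 14.3, 15 and 13.8 in pLKO, with the control strictly between. TYMS, thymidylate synthase, was higher by 0.97, and MCM7, another helicase subunit, by 0.84. The 1 lower gene was POLE, the leading-strand polymerase, at -0.25 (-0.03 and not passed when corrected for length and GC content). pLKO lay above both knockdowns in 22 of the 34 higher genes and beside shPALI1 in 9. Of the inhibitors of cyclin-dependent kinases, 4 of 6 tested were higher and 1 lower. CDKN2A, which encodes p16 and ARF and is a classical PRC2 target, read 13.3, 13.9 and 10.8 RPKM in shPALI1, 3.8, 4.7 and 4.92 in shsuz12 and 7.94, 6.74 and 6.52 in pLKO (log2 difference 1.32). CDKN1A, which encodes p21, was lower in shPALI1 at 125 ± 12.4 RPKM, against 187 ± 11.1 in shsuz12 and 186 ± 13.2 in pLKO (log2 difference -0.59, adjusted p = 0.00028).

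Many replication genes carry an E2F site near their start. With the letters TTTNGCGC, read on both strands, 15 of 34 promoters of the list (44.1%) held the element, against 3.16% of promoters of genes tested and 1.83% of all promoters. Among genes at least 2-fold higher in shPALI1 3.21% held it, close to the share over all genes tested, and among those at least 2-fold lower 1.68%. The MCM2 promoter (chr3:127598161-127598460, plus strand) is shown because its 2 matches, 1 on each strand, overlap into a palindrome just after the start site. Capitals mark the matches. MCM2, a helicase subunit, averaged 30.7 ± 1.5 RPKM in shPALI1, 16.4 ± 0.93 in shsuz12 and 37.1 ± 3.7 in pLKO (log2 difference 0.87).
MCM2: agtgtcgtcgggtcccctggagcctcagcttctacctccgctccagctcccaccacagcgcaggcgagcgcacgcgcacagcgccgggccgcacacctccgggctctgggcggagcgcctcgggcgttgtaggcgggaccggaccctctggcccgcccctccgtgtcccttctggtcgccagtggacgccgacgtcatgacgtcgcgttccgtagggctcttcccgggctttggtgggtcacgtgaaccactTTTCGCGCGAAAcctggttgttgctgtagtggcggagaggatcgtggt

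Genes of the ATF4 amino acid response were higher in shPALI1. ATF4 is a transcription factor that turns on amino acid synthesis, transport and tRNA charging when amino acids are short or the endoplasmic reticulum is stressed. Of its 31 listed genes, all tested, 28 were higher and 1 lower, with a median log2 difference of 0.79. PSAT1, an enzyme of serine synthesis, read 121, 114 and 108 RPKM in shPALI1, 32.8, 31.7 and 30.9 in shsuz12 and 87, 93.8 and 75.1 in pLKO. SLC7A11, the cystine importer, read 22.1, 23.8 and 23.6 RPKM in shPALI1, 6.79, 6.15 and 6.04 in shsuz12 and 12.1, 14 and 12.9 in pLKO. In both genes the groups were fully separate and pLKO lay strictly between, with log2 differences of 1.81 (adjusted p = 1.6e-07) and 1.72 (adjusted p = 2.9e-07). ASNS, asparagine synthetase, averaged 63.6 ± 2.3 RPKM in shPALI1, 22.1 ± 1.5 in shsuz12 and 45.5 ± 3.3 in pLKO. The mRNA of ATF4 itself averaged 121 ± 9.6 RPKM in shPALI1, 57.1 ± 2.6 in shsuz12 and 106 ± 8.6 in pLKO (log2 difference 1.07). The lower gene was VLDLR, a lipoprotein receptor, at -1.03. pLKO lay strictly between in 12 of the 28 higher genes and beside shPALI1 in 9. Chaperones and other genes of the unfolded protein response did not share the direction of the ATF4 list: 6 of 22 were higher and 12 lower. The chaperone CALR was lower at 295 ± 7.1 RPKM in shPALI1, against 680.4 ± 56.6 in shsuz12 and 508 ± 23.9 in pLKO, and the secreted factor MANF was higher by 0.81.

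ATF4 acts with C/EBP partners at composite elements, searched here as TGATGNAA on both strands. Of 27 promoters of the list 7 (25.9%) held it, against 1.56% of promoters of genes tested and 3.67% of all promoters. The share was 5.45% in genes at least 2-fold higher and 1.96% in genes at least 2-fold lower; members of the list contribute to the higher group. The 7 genes were ASNS, CHAC1, ATF3, AARS, CARS, SLC3A2 and SLC7A1. CHAC1, which breaks down glutathione, read 7.16, 7.5 and 8.08 RPKM in shPALI1, 1.75, 1.38 and 1.81 in shsuz12 and 4.51, 4.39 and 4.07 in pLKO (log2 difference 1.7), and its libraries did not overlap between the knockdowns. Its promoter (chr15:40953221-40953520, plus strand) is shown with the match, on the opposite strand, in capitals.
CHAC1: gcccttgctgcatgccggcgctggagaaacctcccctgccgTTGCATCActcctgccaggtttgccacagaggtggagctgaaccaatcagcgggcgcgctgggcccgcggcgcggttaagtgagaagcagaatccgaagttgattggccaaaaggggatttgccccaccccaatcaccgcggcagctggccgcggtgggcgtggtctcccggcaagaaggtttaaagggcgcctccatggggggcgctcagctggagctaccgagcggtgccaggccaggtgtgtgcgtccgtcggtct

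Androgen-activated genes were mostly lower in shPALI1 than in shsuz12. Of 44 tested of 46, 34 were lower (28% of all genes tested were) and 5 higher, with a median log2 difference of -0.73. Among the 34, 1 passed the filter only through shsuz12, which sets its direction, and of the other 43 tested 33 were lower. KLK3, which encodes prostate-specific antigen, read 297, 262 and 342 RPKM in shPALI1, 556, 634 and 593 in shsuz12 and 1160, 1129 and 1036 in pLKO. SLC45A3, the prostate antigen prostein, read 32.1, 34.6 and 34 RPKM in shPALI1, 98.4, 117 and 109.8 in shsuz12 and 81.6, 69.7 and 63.5 in pLKO. The knockdowns were apart in both genes, but the control lay above both in KLK3 and strictly between in SLC45A3. The log2 differences were -0.99 (adjusted p = 4.4e-05) and -1.66 (adjusted p = 4.7e-07). ALDH1A3, a retinaldehyde dehydrogenase, read 8.06, 8.35 and 9.21 RPKM in shPALI1, 44.3, 41.8 and 40.9 in shsuz12 and 22.4, 24 and 21.2 in pLKO, and NDRG1 had 10.4 ± 1, 49 ± 3.4 and 32.6 ± 4.5 RPKM in those groups. PMEPA1, an inhibitor of TGF-beta and androgen signalling, was lower, at -1.69, and the glucocorticoid receptor cochaperone FKBP5 at -1.14. pLKO lay above both knockdowns in 15 of the 34 lower genes, strictly between in 11 and beside shsuz12 in 5. The 5 higher genes were KLK4, GNMT, ZBTB10, HPGD and TRPM8; KLK4, a neighbour of KLK3 in the kallikrein cluster, averaged 57.7 ± 1.8 RPKM in shPALI1, 27.2 ± 0.68 in shsuz12 and 66.7 ± 8.1 in pLKO (log2 difference 1.06). HPGD did not pass without shPALI1 replicate 1 or 3 or shsuz12 replicate 2 (adjusted p = 0.0523, 0.0645 and 0.0707), with TPM (0.0921) or with the length and GC correction (0.515). TRPM8 did not pass without shPALI1 replicate 3 or shsuz12 replicate 2 or 3 (adjusted p = 0.11, 0.122 and 0.0658), nor under 5 other settings, among them TPM (0.338).

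Luminal prostate markers gave 11 lower and 3 higher of 17 tested of 18, with a median of -0.26. The higher markers numbered 1 without shsuz12 replicate 2 or 3, with the replicate block, with 15 libraries in one model and with median ratio, quantile or TPM scaling. ACPP, now ACP3, prostatic acid phosphatase, on chromosome 3 from 132317407 to 132368302, read 1.49, 1.47 and 1.49 RPKM in shPALI1, 23.5, 26.8 and 23.1 in shsuz12 and 11.8, 13.1 and 11.8 in pLKO. It had the third largest fall, -3.36 (95% confidence interval -3.53 to -3.19), with the 3 groups fully apart and the control between. KRT19, a simple-epithelium keratin, read 0.515, 0.148 and 0.0495 RPKM in shPALI1, 5.72, 4.62 and 6.83 in shsuz12 and 3.13, 2.6 and 2.39 in pLKO (log2 difference -2.45), and it passed the filter only through shsuz12. CDH1, E-cadherin, read 82.1, 88 and 89 RPKM in shPALI1, 258, 264 and 248 in shsuz12 and 113, 119.7 and 119.7 in pLKO. The shsuz12 libraries were again the highest and shPALI1 the lowest, a log2 difference of -1.56 (adjusted p = 2.8e-07). CD24, a surface glycoprotein, was higher by 0.98. Of the basal and neuroendocrine markers 4 of 19 could be tested, and 4 were lower, but 2 of them passed the filter only through shsuz12, the group where they were high, so the count supports nothing. One of those 2, SYP, the synaptic vesicle protein synaptophysin, read 0.74, 0.687 and 0.659 RPKM in shPALI1, 4.71, 4.86 and 5.05 in shsuz12 and 0.632, 0.748 and 0.6 in pLKO.

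RNA of most tested lipid synthesis genes was lower in shPALI1 than in shsuz12, in 3 lists. Of 26 cholesterol and SREBP genes tested of 27, 21 were lower and 1 higher (median -0.60). Of 20 fatty acid genes tested of 21, 17 were lower and 2 higher (median -0.57), and of 20 sphingolipid genes tested of 23, 14 were lower and 3 higher (median -0.55). In the sphingolipid list 1 gene passed the filter only through shPALI1 and 1 only through shsuz12. Of the other 18, 13 were lower and 2 higher. SCD, stearoyl-CoA desaturase, read 25.2, 27.1 and 33.6 RPKM in shPALI1, 227, 224 and 216 in shsuz12 and 163, 166 and 152 in pLKO. The shPALI1 libraries lay far below the others, and the log2 difference was -2.93 (adjusted p = 1.6e-07). MSMO1, a sterol demethylase, read 10.6, 10.2 and 12.8 RPKM in shPALI1, 40.5, 40.2 and 39.3 in shsuz12 and 25.4, 25.8 and 23.3 in pLKO. The knockdowns were apart in MSMO1, at -1.76, with pLKO strictly between. SREBF2, the factor that drives these genes, was lower, at -0.95. LSS was the 1 cholesterol gene that was higher (0.2, adjusted p = 0.029). It did not pass without shPALI1 replicate 1 or 3 or shsuz12 replicate 1 or 2 (adjusted p = 0.0833, 0.0531, 0.0731 and 0.0854), nor under 5 other settings, among them TPM (0.228).

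DEGS1, the desaturase that completes ceramide, read 51, 44.1 and 53.1 RPKM in shPALI1, 217, 229 and 214 in shsuz12 and 203, 226 and 204 in pLKO. Here the control overlapped with shsuz12, and the shPALI1 libraries stood alone at the low end (-2.14, adjusted p = 2e-07). The ceramide synthases CERS4 and CERS6 were lower, at -1.74 and -1.73, while CERS2 was higher by 0.6. SOAT1, which esterifies cholesterol, read 2.87, 2.75 and 3.2 RPKM in shPALI1, 25.5, 23.2 and 22.8 in shsuz12 and 9.73, 10.8 and 10.5 in pLKO. It was among the 12 largest falls, as was FAXDC2, a sterol hydroxylase-like protein, with 0.63 ± 0.17 RPKM in shPALI1, 8.9 ± 0.79 in shsuz12 and 1.73 ± 0.13 in pLKO. FAXDC2 passed the filter only through shsuz12, which sets its direction. ACSL1 and ELOVL7, which activate and lengthen fatty acids, were lower, at -1.6 and -1.52, while ELOVL6 was higher by 1.1. Of 20 cholesterol gene promoters 1 (5%), that of SREBF2, held the sterol element TCACNCCAC on either strand, against 1.11% of promoters of genes tested, 0.321% of those at least 2-fold higher and 1.68% of those at least 2-fold lower.

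Genes of the cleavage-stage embryo that could be tested were higher in shPALI1. These genes are normally active for a short time after fertilisation, and many are known targets of the transcription factor DUX4. The DUX4 row itself read 0, 0 and 0.0426 RPKM in shPALI1 and 0 in all shsuz12 and pLKO libraries. Whether DUX4 had a part was not tested. The list was written after their values had been seen, so its counts support nothing: of 51 genes with a row 19 passed the filter, all through the shPALI1 libraries, and such genes had to differ. All 19 were higher, with a median of 1.65. Members under the filter differed: PRAMEF1 read 0.971, 1.22 and 1.25 RPKM in shPALI1 and 0, 0.0303 and 0.0681 in shsuz12. DUXA read 0.226, 0 and 0.131 RPKM in shPALI1 and 0.478, 0.199 and 0.273 in shsuz12. ARGFX, DPRX and DPPA3 stood at 0 in all 9 libraries. PRAMEF12, of the PRAME family, on chromosome 1 from 12773738 to 12777906, read 14.1, 13.6 and 11.9 RPKM in shPALI1, 0.145, 0.25 and 0.561 in shsuz12 and 1.32, 1.62 and 1.3 in pLKO. ZSCAN4, a telomere regulator known from early mouse embryos, on chromosome 19 from 57651476 to 57679152, read 4.64, 5.67 and 4.44 RPKM in shPALI1, 0.046, 0.296 and 0.074 in shsuz12 and 0, 0.224 and 0.153 in pLKO. All shPALI1 libraries lay above all others in both genes, with log2 differences of 3.44 (adjusted p = 2.2e-07) and 2.38 (adjusted p = 1.1e-06). Both genes passed the filter only through shPALI1, so their direction was set and these p-values add no support. KHDC1L read 10.3, 8.37 and 5.63 RPKM in shPALI1, 0.244, 0.583 and 0 in shsuz12 and 0.128, 0.198 and 0.406 in pLKO, LEUTX, a homeobox gene of the early embryo, averaged 3.03 ± 0.28 RPKM in shPALI1, 0.0367 ± 0.064 in shsuz12 and was listed at 0 in pLKO, and TRIM49B averaged 5.34 ± 0.34, 0.0512 ± 0.012 and 0.206 ± 0.1 RPKM in shPALI1, shsuz12 and pLKO. MBD3L2 read 5.26, 3.66 and 2.07 RPKM in shPALI1 and was listed at 0 in all shsuz12 and pLKO libraries, so no fold is given. PRAMEF, TRIM43, TRIM49, RFPL4 and MBD3L genes have near-identical copies, and how shared reads were counted is not known. pLKO lay beside shsuz12 in 15 of the 19 genes.

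The DUX4 site was searched on both strands as TAAT and AATCA with any 2 bases between them. It was held by 5 of 16 promoters of the list (31.2%), those of TRIM48, TRIM49B, MBD3L2, MBD3L3 and RFPL4A, some of which are near copies of each other. The share was 0.187% over the promoters of genes tested and 0.337% over all promoters. It was 1.6% of 312 promoters of genes at least 2-fold higher in shPALI1, and members of the list contribute to these. Among genes at least 2-fold lower 0 of 357 promoters held it. With an element this rare, few matches can be awaited there, so the 0 shows no contrast. TRIM48 read 4.06, 4.73 and 3.88 RPKM in shPALI1, 0.107, 0.102 and 0.172 in shsuz12 and 0.112, 0.0435 and 0.237 in pLKO. Its promoter (chr11:55261905-55262204, plus strand), with 1 CpG dinucleotide, is shown with the match in capitals.
TRIM48: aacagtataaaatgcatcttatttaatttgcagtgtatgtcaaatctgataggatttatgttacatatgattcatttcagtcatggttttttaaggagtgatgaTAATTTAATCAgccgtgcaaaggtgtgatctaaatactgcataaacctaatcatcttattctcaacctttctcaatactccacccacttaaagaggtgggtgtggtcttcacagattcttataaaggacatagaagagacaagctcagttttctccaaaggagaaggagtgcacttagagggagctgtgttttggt

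Several interferon-stimulated genes, which encode antiviral proteins, were higher in shPALI1. Of 24 tested of 38 listed, 15 were higher and 3 lower, but 8 passed the filter only through shPALI1 and 1 only through shsuz12, which sets the direction of such genes. Of the other 15, 8 were higher and 2 lower, and of the 9 with a mean RPKM of at least 3, 6 were higher and 0 lower. IFI6 read 38.9, 28.1 and 25.8 RPKM in shPALI1, 5.29, 6.79 and 4.15 in shsuz12 and 13.1, 11 and 10.4 in pLKO. ISG15, a ubiquitin-like modifier, read 70.7, 65.9 and 58.9 RPKM in shPALI1, 26.3, 28 and 31.6 in shsuz12 and 57.7, 49.1 and 47.9 in pLKO. DDX58, the RNA sensor RIG-I, read 3.5, 3.91 and 3.65 RPKM in shPALI1, 0.728, 0.684 and 0.716 in shsuz12 and 0.97, 1.52 and 1.48 in pLKO. In all 3 the shPALI1 libraries were the highest, the shsuz12 libraries the lowest and the control between, at 2.32, 1.16 and 1.46 (adjusted p = 7.2e-06, 7e-06 and 2e-06). The tetherin gene BST2 averaged 2.14 ± 1.1 RPKM in shPALI1, 0.136 ± 0.1 in shsuz12 and 1.45 ± 0.18 in pLKO. DDX58 and BST2 were among the 8 genes that passed the filter only through shPALI1, so their direction was set. STAT2, a factor that carries the interferon signal, did not pass (-0.07), and TRIM22, DHX58 and IFI35 were lower, the last not without shsuz12 replicate 3 (adjusted p = 0.0542). Antigen presentation genes of MHC class I went both ways, with 5 of 12 tested higher and 4 lower; 2 of the 5 passed the filter only through shPALI1. The higher genes numbered 3 without shPALI1 replicate 1, without shsuz12 replicate 1, with no filter or with the replicate block. NLRC5, their transactivator, averaged 1.38 ± 0.065 RPKM in shPALI1, 0.502 ± 0.041 in shsuz12 and 0.489 ± 0.074 in pLKO. NLRC5 passed the filter only through shPALI1, which sets its direction.

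The interferon-stimulated response element was searched on both strands as GAAA and again GAAA with any 2 bases between them. It stood in 11 of 18 promoters of the list (61.1%), against 2.56% of promoters of genes tested and 3.65% of all promoters. It stood in 5.45% of promoters of genes at least 2-fold higher and in 1.68% of those at least 2-fold lower, and members of the list contribute to the higher group. The IFI6 promoter (chr1:27672143-27672442, minus strand) is shown because it held 3 matches, in capitals, at 156, 115 and 93 bases before the start site.
IFI6: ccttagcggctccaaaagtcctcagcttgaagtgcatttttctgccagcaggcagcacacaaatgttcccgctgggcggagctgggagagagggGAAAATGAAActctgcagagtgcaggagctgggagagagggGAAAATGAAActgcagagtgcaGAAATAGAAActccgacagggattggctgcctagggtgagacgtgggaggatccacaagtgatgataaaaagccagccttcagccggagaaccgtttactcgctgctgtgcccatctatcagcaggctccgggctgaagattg

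Genes of the actin cytoskeleton and of the YAP and TEAD pathway went both ways, while tested immediate early genes were more often higher than lower. The counts were 18 higher and 6 lower of 34 actin genes tested of 41 (median 0.32), 7 and 3 of 12 YAP and TEAD targets tested of 24 (median 0.27), and 9 and 1 of 14 immediate early genes tested of 21 (median 0.76). The higher YAP and TEAD targets numbered 4 without shsuz12 replicate 2, with the replicate block and with median ratio or TPM scaling, a share near the 34.9% of all genes. In both the YAP and TEAD and the immediate early list, 1 gene passed the filter only through shPALI1. Of the 10 immediate early genes with a mean RPKM of at least 3, 6 were higher; the 1 lower gene did not pass without replicate 1 or 3 of either knockdown. CTGF, now CCN2, a matrix protein and textbook YAP target, on chromosome 6 from 131948176 to 131951372, read 6.71, 5.87 and 6.56 RPKM in shPALI1, 0.11, 0.0947 and 0.0709 in shsuz12 and 0.0345, 0.0268 and 0.0366 in pLKO. CYR61, now CCN1, its relative, read 17.2, 15.3 and 14 RPKM in shPALI1, 7.05, 7.13 and 7.43 in shsuz12 and 2.5, 2.96 and 2.32 in pLKO. Both had the order shPALI1 above shsuz12 above pLKO with no overlap, and log2 differences of 2.75 (adjusted p = 1.6e-07) and 1.0 (adjusted p = 9.6e-06). The filter let CTGF pass through its shPALI1 libraries alone. FSCN1, the filopodial bundling protein fascin, read 17, 18 and 15.1 RPKM in shPALI1, 3.58, 3.62 and 3.74 in shsuz12 and 2.63, 1.89 and 1.44 in pLKO. PALLD and TPM4, which shape stress fibres, were higher by 1.95 and 1.68, and the calponin CNN2 by 1.62. TAGLN, another actin-binding protein, went the other way, at -1.56. ATF3, a stress-induced AP-1 partner, read 32.8, 30.3 and 25.1 RPKM in shPALI1, 8.44, 8.54 and 8.22 in shsuz12 and 7.69, 7.28 and 7.55 in pLKO. EGR1 averaged 1.43 ± 0.13, 0.281 ± 0.037 and 0.176 ± 0.045 RPKM in those groups. EGR1 passed the filter only through shPALI1, which sets its direction. MYC averaged 125 ± 0.57 RPKM in shPALI1, 65 ± 2 in shsuz12 and 115.5 ± 9.2 in pLKO (log2 difference 0.93), so here the shsuz12 libraries stood apart from the other groups.

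Of 8 promoters of YAP and TEAD targets, 5 (62.5%) held the TEAD letters GGAATG on either strand, against 10.6% of promoters of genes tested and 14% of all promoters. The share was 12.2% in genes at least 2-fold higher and 12% in genes at least 2-fold lower. The CTGF promoter (chr6:131951323-131951622, minus strand) held 3, marked in capitals, 169, 104 and 95 bases before the start site.
CTGF: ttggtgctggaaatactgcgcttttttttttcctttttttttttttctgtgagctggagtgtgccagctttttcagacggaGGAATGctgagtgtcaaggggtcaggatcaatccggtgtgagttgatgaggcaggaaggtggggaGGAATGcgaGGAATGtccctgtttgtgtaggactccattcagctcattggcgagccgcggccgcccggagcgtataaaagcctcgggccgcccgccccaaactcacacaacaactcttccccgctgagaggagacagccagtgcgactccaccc

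**Figure D4:**
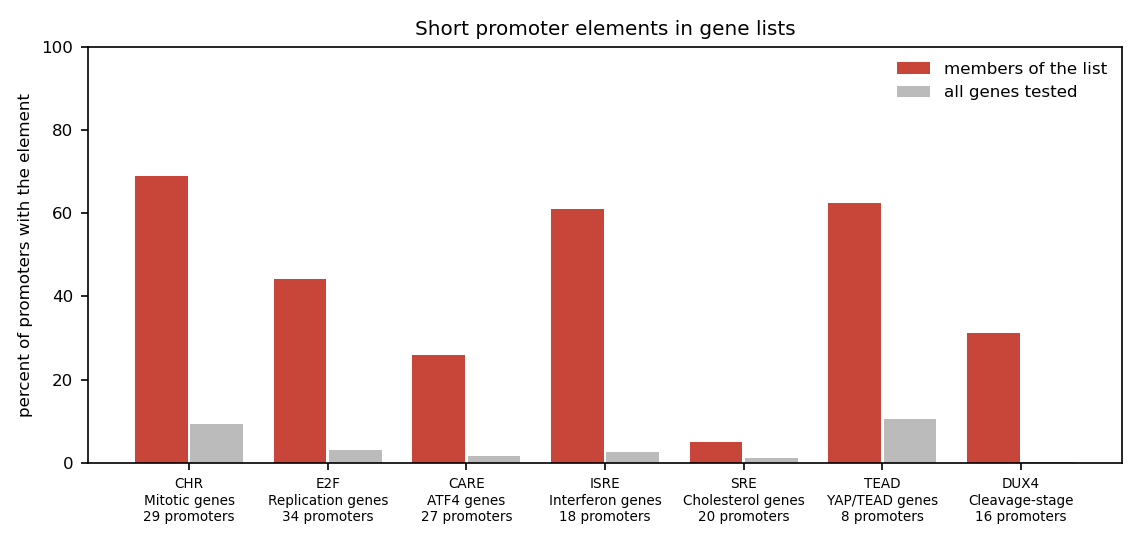
Percent of RefSeq promoters of 300 bases (vertical axis) that hold each element, for members of the matching gene list (red) and for all tested genes with a promoter (grey). The shares in the lists are 69% for CHR, 61.1% for ISRE and 5% for SRE; the cleavage-stage list was written after its values had been seen. Shares within a list describe its chosen members and not the knockdowns.

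CpG content differed little by direction in its median. The ratio of observed to expected CpG had a median of 0.821 in 312 promoters of genes at least 2-fold higher in shPALI1, 0.767 in 357 promoters of genes at least 2-fold lower and 0.851 in the 9620 promoters of genes tested. A ratio of at least 0.6 was found in 75.6% of the higher, 66.1% of the lower and 84.9% of all these promoters. These are descriptions without a test.

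Developmental genes, the classical targets of PRC2, gave no direction common to all lists. The median log2 difference was -0.41 for HOX genes, -0.3 for neuronal genes and -0.31 for genes reported as silenced by EZH2. It was 0.17 for other developmental transcription factors. Of 39 HOX genes 10 could be tested, and 2 were higher and 6 lower in shPALI1; 1 of each passed the filter only through the group where it was high. HOXC6 read 7.09, 6.54 and 6.46 RPKM in shPALI1, 16.9, 17.6 and 18.4 in shsuz12 and 11, 9.51 and 9.9 in pLKO, and HOXC13 read 4.51, 3.46 and 3.35 RPKM in shPALI1, 9.14, 10.3 and 9.81 in shsuz12 and 7.19, 7.1 and 6.62 in pLKO. Both were lower in shPALI1 with the control strictly between (-1.27 and -1.18), while HOXB9 was higher (0.69). Of 89 other developmental transcription factors 33 were tested, with 14 higher and 7 lower, of which 3 and 2 passed the filter only through the group where they were high. ZIC2, a zinc finger factor of the neural plate, read 22.7, 21.5 and 20.1 RPKM in shPALI1, 5.35, 5.54 and 5.97 in shsuz12 and 7.48, 7.37 and 7.41 in pLKO, and SOX9, a regulator of cartilage development, read 1.54, 1.89 and 1.96 RPKM in shPALI1, 5.55, 5.26 and 5.87 in shsuz12 and 5.72, 5.83 and 4.75 in pLKO. ZIC2 was higher by 1.76 and SOX9 lower, at -1.23, each with no overlap. SOX4 was higher by 1.2. Of 63 neuronal genes 19 were tested, 2 higher and 10 lower (2 of the 10 passed the filter only through shsuz12), among the lower SYT7, a synaptotagmin of vesicle fusion, with 3.12 ± 0.53 RPKM in shPALI1, 19.5 ± 0.65 in shsuz12 and 10.1 ± 0.92 in pLKO. NLGN1, a synaptic adhesion protein, was one of the 2 higher, at 1.23. Of 24 genes reported as silenced by EZH2 in prostate cancer 10 were tested, with 2 higher and 5 lower, and 1 higher when any library but shPALI1 replicate 3 was left out. TIMP2, a metalloprotease inhibitor, averaged 14.2 ± 1.5 RPKM in shPALI1, 34.9 ± 0.99 in shsuz12 and 12.7 ± 0.96 in pLKO.

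Members of some clustered families were higher in shPALI1. UGT2B enzymes, which attach glucuronic acid to androgens and clear them, were higher in 5 of 6 tested and lower in 0, and 2 of the 5 passed the filter only through shPALI1. With median ratio scaling, TPM or the length and GC correction 1 was lower. UGT2B28 read 24.2, 26.5 and 22.2 RPKM in shPALI1, 4.68, 6.37 and 6.34 in shsuz12 and 5.38, 5.79 and 7.58 in pLKO, and UGT2B11 read 85.6, 84.7 and 76.7 RPKM in shPALI1, 21.5, 22.8 and 21.2 in shsuz12 and 20.7, 22.4 and 26.9 in pLKO. The shPALI1 libraries lay above the others, and the other groups overlapped, at 1.9 and 1.87. Of 53 clustered protocadherins, adhesion genes of neurons with shared sequence, 13 were tested, and 8 were higher and 0 lower. Of these 8, 6 passed the filter only through shPALI1, which sets their direction. Of the other 7 tested, 2 were higher, against 34.9% of all genes tested. PCDHB15 was among the 6 that passed only through shPALI1. It read 2.59, 2.55 and 2.42 RPKM in shPALI1, 0.537, 0.308 and 0.518 in shsuz12 and 0.393, 0.74 and 0.476 in pLKO (log2 difference 1.28). Among protocadherins with a mean RPKM of at least 3 the median of the list was 0.02. UGT2B and PCDHB genes resemble each other closely, so reads may have been split between copies.

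Cytosolic ribosomal protein genes were higher in 38 of 46 tested and lower in 0, by a small median of 0.33. RPL34 was the largest, with 396, 323 and 317 RPKM in shPALI1, 119, 136 and 126 in shsuz12 and 246, 268 and 222 in pLKO (1.44), and ribosomal genes have many pseudogenes. With quantile normalization 24 were higher and 6 lower, with a median of 0.13, and with no filter 20 were higher. Matrix genes, Notch genes, hypoxia and glycolysis, the respiratory chain, clustered histones, p53 targets, imprinted genes and cancer testis antigens went both ways. Of 12 tested matrix genes 5 were higher and 5 lower, with FN1 (fibronectin) higher by 1.43 and LAMC1 (a laminin chain) lower, at -1.1. Among the higher matrix genes, 1 passed the filter only through shPALI1. Of 17 Notch genes 6 were higher and 5 lower, with the target HES1 at 6.91 ± 0.42 RPKM in shPALI1, 1.98 ± 0.36 in shsuz12 and 6.24 ± 0.47 in pLKO and the receptor NOTCH1 lower, at -0.76. The lower Notch genes numbered 3 without shsuz12 replicate 2 or 3. Of 32 hypoxia and glycolysis genes 9 were higher and 12 lower, of 35 respiratory chain genes 11 and 9, of 25 histone genes 6 and 8, and of 28 p53 targets 7 and 9. Among these, 1 higher hypoxia gene, 1 higher histone gene and 1 lower histone gene passed the filter only through the group where they were high. The lower respiratory chain genes numbered 5 without shPALI1 replicate 2 or 3 or shsuz12 replicate 2. ALDOC, an aldolase, was lower, at -1.45, and RRM2B, a p53-induced ribonucleotide reductase subunit, was higher by 1.48. Of 10 imprinted genes 2 were higher and 4 lower, with GNAS, the stimulatory G protein subunit, higher by 0.97. Of 14 cancer testis antigens 5 were higher and 5 lower, with MAGEA4 higher by 1.16 and MAGEC2 lower, at -1.49. Among the lower antigens, 1 passed the filter only through shsuz12. The higher antigens numbered 2 without shsuz12 replicate 3 or with TPM, and 3 without shPALI1 replicate 1 or shsuz12 replicate 2. The medians of 9 lists changed sign under at least 1 other setting: demethylases, matrix, Notch, hypoxia, respiratory chain, histone, p53, MHC class I and cancer testis genes.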

How the data were processed

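RNA was sequenced from LNCaP cells of 5 hairpin groups with 3 libraries each, and the 6 libraries of shPALI1 and shsuz12 were tested. The authors deposited 1 table of RPKM values. Reads were aligned with STAR to hg38, per the submitters' processing notes; the sources used here give no versions, counter or gene models. The table held 26475 names, 32 of them without values, 28 turned into dates and 2 standing on more than 1 line.

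Depth was read from the steps of 1 read, at which 93.0% to 94.8% of low values lay within 0.05 of a whole number. Genes that reached 1 RPKM in 3 or more of the 6 libraries were tested on log2(RPKM + 1) with limma 3.58.1 in R 4.3.3 (two-sided moderated test, mean-variance trend). Adjusted p values are Benjamini-Hochberg values over all genes tested, and 0.05 was the threshold. A fold on this scale understates changes of low genes. Confidence intervals are at 95%. Tables were made with pandas 2.3.3 in Python 3.11.15. The procedure was tested on simulated data.

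The members and the gene lists were chosen with earlier results of these data known, and no list received a test of its own; the cleavage-stage list was added last. Text names the targeted genes, PRC2 genes, the 12 largest non-overlapping differences each way among genes averaging 2 RPKM or more in their higher group, and per list the 4 genes of smallest p. Some genes under this rule are not reported here. Other members are named as exceptions, examples or extremes and were chosen after their values were seen. Promoters and gene positions are RefSeq entries on GRCh38.p14, matched by symbol, and 9620 of the 12175 genes had a promoter. Alternatives covered pseudocount, filter, scaling, model, replicate number and each library left out. A length and GC correction, for the 94.6% of genes with both values, was added after seeing the data.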

Additional observations from a re-analysis of the deposited data

How the results depend on the processing

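The counts of higher and lower genes moved by less than 1.5 times under every setting tried. Counts of genes at least 2-fold apart moved more: a pseudocount of 0.1 gave 681 higher and 773 lower, and TPM gave 896 lower. The median over all genes was -0.041 with TPM. Leaving out each library in turn gave 3809 to 4090 higher and 2995 to 3268 lower genes, 405 to 441 at least 2-fold higher and 485 to 543 at least 2-fold lower. Deviations of same-numbered libraries from their group means correlated at -0.165, -0.0857 and -0.0935 across genes, so no positive link by replicate number was seen. These values cannot settle whether the libraries were prepared in pairs. A model with the replicate number as a block gave 3913 higher and 3145 lower genes, with 413 and 496 at least 2-fold apart. Of 201 named genes 189 kept call and direction under all of the 17 settings that gave them a value. COL1A1 lost its call under 8 settings, with a log2 difference of 0.005 under the length and GC correction, and KDM4B lost its call there; EED was at -0.024 with TPM and -0.257 with that correction. Of 646 list medians 20 changed sign: demethylases -0.03 with TPM; matrix genes -0.35 at a mean RPKM of at least 3; Notch genes 0.13 at that filter, 0.09 with the correction, and -0.07 to 0.03 with 1 library left out. Hypoxia genes were at 0.1 with the correction, and respiratory chain genes at -0.02 with TPM and -0.09 with the correction. Histone genes were at -0.16 to 0.01 without 1 library. p53 targets were at -0.04, -0.02 and -0.09 with median ratio, quantile and TPM scaling, -0.03 with the correction and -0.01 to 0.02 without 1 library. MHC class I genes were at 0.03 at the higher filter, 0.01 with the correction, and -0.11 to 0.04 without 1 library. Cancer testis genes were at 0.01 at the higher filter. Where a median lay this near 0, its sign carries no result, and the causes were not tested. Differences in genes under 1 RPKM rest on few reads.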
